A study of Saccharomyces cerevisiae with 18 samples.

Results

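Entry into the Oxidative phase of the yeast metabolic cycle was examined as the change in chromatin accessibility from Reductive Charging, time points 1 to 5, to the first Oxidative time points, 6 and 7. These 7 of the 18 libraries were chosen by their labelled phase and time point, with their good coverage and likeness to each other known beforehand. The later Reductive Charging libraries, time points 16 to 18, were left out of the main comparison. Budding yeast (Saccharomyces cerevisiae) was grown in a fermenter, fixed with formaldehyde, and its nuclei were treated with a transposase that cuts open DNA (ATAC-seq). Each time point is 1 library with no repeat, so the 5 Reductive Charging libraries and the 2 Oxidative libraries stood as replicates of their phases. What the p-values measure is thus the spread among time points, and neighbouring time points are not independent. The labels used here name no strain or genotype. The samples were collected in 2 batches that the labels used here do not assign to libraries, so a batch and the phases cannot be told apart.

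In a fermenter, starved and then slowly fed yeast can respire in synchronised bursts. In the Oxidative phase cells take up oxygen quickly and make amino acids, sulfur metabolites and ribosomes. In Reductive Charging they are quiescent-like, hold storage carbohydrates and express stress genes under the transcription factors Msn2 and Msn4. A nucleosome-depleted promoter is cut more often by the transposase, and the count of a peak relative to all nuclear counts is its accessibility here.

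The deposited table lists 2086 peaks. The 2042 nuclear peaks outside the ribosomal DNA were used, and 1766 of them had the 5' end of at least 1 coding gene no more than 500 bp away. Nuclear counts ran from 2073443 (time point 2) to 8880944 (time point 7). The median nuclear peak had between 389.5 and 1679 counts per library, and at most 6 peaks were at 0 in any of them. A count of 0 still allows up to 1.40 CPM (counts per nuclear total, scaled with TMM factors) at time point 2 and 0.311 at time point 7 (3 counts in that library), for counting error only. Because coverage and likeness were known when the libraries were chosen, these depths and the correlations that follow only describe the chosen set. Spearman correlations over the nuclear peaks were 0.931 to 0.956 between the Reductive Charging libraries. Time point 7 correlated with them at 0.937 to 0.969, its closest being time point 5, and time point 6 at 0.915 to 0.929. Time point 6 stood apart on the first principal component. Time point 4 stood apart on the second. Mitochondrial peaks held 55.2% ± 6.63 (SD, n = 5) of all counts in Reductive Charging and 40.8% ± 8.40 (n = 2) at entry. That difference of -14.5 percentage points reached the smallest exact permutation p that 2 against 5 libraries allow (two-sided, p = 0.0476; adjusted p = 0.143 over 3 shares). Ribosomal DNA held 16.3% ± 5.04 and 23.5% ± 4.30 (exact permutation p = 0.0952, adjusted p = 0.143).

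**Figure D1:**
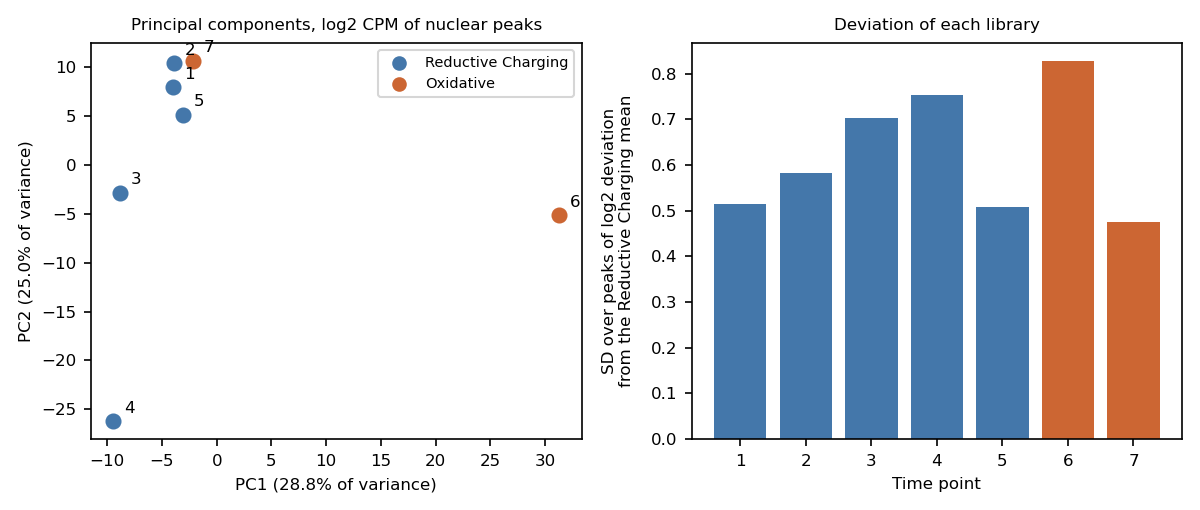
Left, the first principal components of log2 CPM over 2042 nuclear peaks, 1 point per library with its time point; right, the SD over peaks of each library's log2 deviation from the Reductive Charging mean (for a Reductive Charging library, the mean of the other 4). Time point 6 lies apart on the first component and has the highest SD (0.827), while time point 7 has the lowest (0.476).

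At entry 3 promoter peaks rose and none fell, so 0.147% of the 2042 peaks tested passed upward (edgeR quasi-likelihood test, Benjamini-Hochberg adjusted over all nuclear peaks; 75 higher and 76 lower at an unadjusted p under 0.05, which is 3.67% and 3.72% of peaks and 7.39% together). No peak passed downward with limma-voom, and 11 did with DESeq2. In order of size the 3 were the peaks of SHM2, CAF120 and MEP2. SHM2 encodes the cytosolic serine hydroxymethyltransferase, which interconverts serine and glycine and loads 1-carbon units onto folate. CAF120 belongs to the CCR4-NOT complex of transcription and mRNA decay. MEP2 encodes a high-affinity ammonium permease.

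The SHM2 peak (chromosome XII, 259391 to 260352, build R64) covers the 5' end of SHM2 and much of the neighbouring REX2, an RNA exonuclease gene on the same strand, and cannot say which of them it serves. It had 127, 163, 120, 119 and 175 CPM at time points 1 to 5, then 437 and 515 CPM at time points 6 and 7. Both Oxidative libraries lay far above the highest Reductive Charging library. Its mean of 141 CPM ± 26.5 (SD, n = 5) thus rose 3.38-fold (edgeR adjusted p = 0.000971), or 1.76 ± 0.26 (SE) in log2 fold change. It passed at each Oxidative time point alone, with 1.63 ± 0.32 at time point 6 (edgeR adjusted p = 0.0170) and 1.87 ± 0.31 at time point 7 (adjusted p = 0.00597). At time points 8 to 10 the peak lay 2.93, 2.69 and 2.82 above the Reductive Charging mean on the log2 scale, and the later 3 libraries were higher than the first 2 Oxidative ones by 1.05 ± 0.25 (edgeR fit of time points 1 to 10, adjusted p = 0.0270). In that fit 7.64% of peaks were higher and 8.86% lower at time points 8 to 10 than in Reductive Charging (edgeR adjusted p under 0.05). SHM2 thus rose at the first Oxidative library and rose further after time point 7.

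The CAF120 peak (chromosome XIV, 112311 to 113186) lies upstream of the gene, 85 bp from its 5' end. It had 161, 110, 127, 138 and 156 CPM in Reductive Charging and 508 and 328 CPM at entry. Again the groups did not overlap, with time point 6 the higher of the Oxidative pair. The log2 fold change was 1.59 ± 0.27 (edgeR adjusted p = 0.00421), and by itself time point 6 had 1.87 ± 0.32 (adjusted p = 0.00345) and time point 7 had 1.24 ± 0.33 (adjusted p = 0.217). The step from time point 6 to 7 did not pass (log2 difference -0.63, edgeR adjusted p = 0.682). At time points 8 to 10 the deviations were 1.38, 1.22 and 1.39.

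The MEP2 peak (chromosome XIV, 356341 to 357451) covers the unnamed reading frame YNL143C and ends 2 bp before the 5' end of MEP2. Its values were 274, 530, 451, 489 and 467 CPM in Reductive Charging and 1010 and 797 CPM at entry. Time point 1 was the lowest, and both Oxidative libraries lay above all 5. The log2 fold change was 1.03 ± 0.21 (edgeR adjusted p = 0.0387). At time points 8 to 10 its log2 deviations were 0.64, -0.13 and 0.72, and those libraries did not pass against Reductive Charging (0.42 ± 0.23, edgeR adjusted p = 0.228). The calls of CAF120 and MEP2 rested on time point 6: without it their adjusted p were 0.322 and 0.328, while SHM2 still passed as the 1 peak left. Without time point 7 the count was 21 (5 higher, 16 lower). With all 18 libraries in the fit, or with a linear term for time, none of the 3 passed (edgeR adjusted p = 1.00 and 0.866 for SHM2), and there was no call at all.

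The next 6 promoters upward did not pass. They were those of TOS6 with RPL18B, IPP1, PRY2 with FPT1, ZRC1, LYS12 with RSM25, and INA1. Each had both Oxidative libraries above all 5 Reductive Charging ones. IPP1, the cytosolic inorganic pyrophosphatase, had 65.4 to 87.6 CPM in Reductive Charging and 202 and 173 CPM at entry. The log2 fold change was 1.33 ± 0.35 (edgeR adjusted p = 0.191). LYS12, a lysine biosynthesis enzyme whose peak also reaches the mitochondrial ribosomal protein gene RSM25, had 37.9 to 86.4 CPM in Reductive Charging and then 159 and 198 CPM. The peak between TOS6, a cell wall protein gene, and RPL18B, a large-subunit ribosomal protein gene, had 95.2 to 251 CPM before and 358 and 395 CPM after. The vacuolar zinc transporter gene ZRC1 had 119 to 210 CPM and then 304 and 381 CPM. INA1 had 246 to 367 CPM and then 587 and 456 CPM. With DESeq2, whose test passed 18 peaks, IPP1, LYS12, TOS6 and ZRC1 were among the 7 higher ones.

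The 6 promoters of genes with standard names that had the smallest p downward did not pass either. The peak between the reading frames YNL194C and YNL193W, which have none, had a log2 fold change of -0.90 (edgeR adjusted p = 0.191) and a smaller p than 3 of them. The 6 were those of PAI3 with SIP18, FMP45, CYB2, EIS1 with HOF1, TPS2, and RAS2 with PLS1. The divergent promoter of PAI3, an inhibitor of proteinase A, and SIP18, a desiccation-stress gene, had 171, 219, 209, 189 and 150 CPM in Reductive Charging and 53.2 and 83.0 CPM at entry. It had a log2 fold change of -1.46 ± 0.35 (edgeR adjusted p = 0.169). CYB2, the cytochrome b2 lactate dehydrogenase, had 856, 894, 873, 688 and 590 CPM and then 443 and 474 CPM. Time points 4 and 5 were already its lowest within Reductive Charging. TPS2, the trehalose-6-phosphate phosphatase, had 636 to 812 CPM and then 486 and 419 CPM. FMP45, a membrane protein gene, had 489 to 668 CPM and then 381 and 296 CPM. EIS1, an eisosome gene, shares its peak with the cytokinesis gene HOF1, and that peak had 347 to 466 CPM and then 203 and 228 CPM. The peak of RAS2, a GTPase that drives cAMP synthesis, had 1580 to 1970 CPM and then 1260 and 1110 CPM. All 6 were among the 11 lower peaks that DESeq2 passed, as was that of YNL194C.

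**Figure D2:**
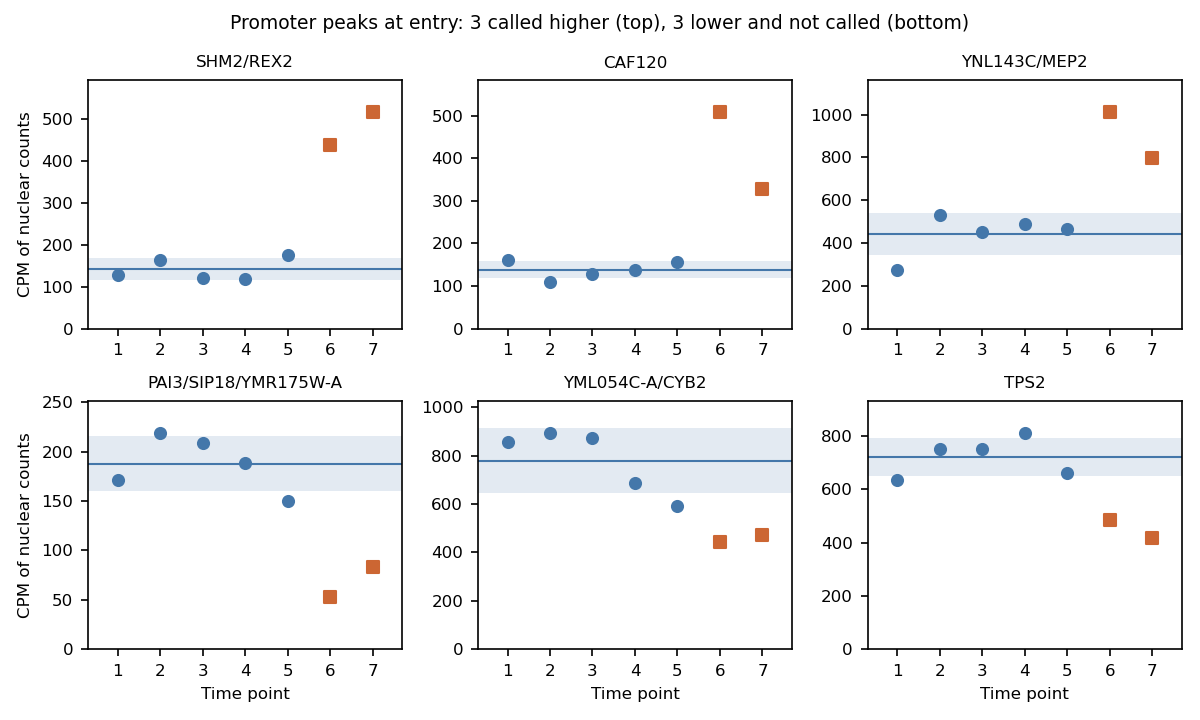
CPM of nuclear counts at time points 1 to 7 for 6 promoter peaks, with Reductive Charging as circles and Oxidative as squares; the line and band are the Reductive Charging mean ± SD (n = 5). Both squares lie above every circle in the top row and below every circle in the bottom row, whose peaks did not pass.

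Taken singly, time point 6 differed from Reductive Charging at 19 peaks, 5 of them higher (0.245% of peaks) and 14 lower (0.686%; 0.93% in all; edgeR adjusted p under 0.05; the lone library is assumed to vary like the others). The 5 higher peaks were those of SHM2, CAF120, MEP2, PRY2 with FPT1, and MSB2. PRY2 encodes a secreted sterol-binding protein, and its peak had 540, 619, 586, 644 and 647 CPM and then 1130 and 777 CPM (time point 6: log2 fold change 0.90 ± 0.21, edgeR adjusted p = 0.0326). MSB2, a mucin at the head of a mitogen-activated kinase cascade, had 648, 550, 567, 632 and 567 CPM, 1070 CPM at time point 6 and 647 CPM at time point 7. That last value is back inside the Reductive Charging range, whereas the other 4 stayed above it. Against Reductive Charging, MSB2 passed again at time points 8 to 10 (1.08 ± 0.16, edgeR adjusted p = 0.000193), as did PRY2 (1.30 ± 0.15, adjusted p = 2.34e-05).

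At an unadjusted p under 0.05 it had 5.53% of peaks higher and 8.03% lower, 13.6% in all. The 14 lower peaks behaved otherwise. At time point 7 none of them was below the Reductive Charging range, 11 lay within it and 3 above it. They were small peaks with a median length of 400 bp against 595 bp for all nuclear peaks, and a median mean level of 82.7 CPM against 169. At time point 6 they had 0 to 460 counts, and 5 of them fewer than 10. The 5 named by size were at RAD53 with RRD2, PRP43 with COQ8, SIR2, RAT1 and URH1. RAD53 encodes the checkpoint kinase, PRP43 an RNA helicase, SIR2 the silencing deacetylase, RAT1 a nuclear exonuclease and URH1 a uridine nucleosidase. The first 3 of these had 0 counts at time point 6 and were at least 50.5-fold, 49.7-fold and 39.7-fold lower than their Reductive Charging means (against 3 counts in that library, 0.603 CPM). PRP43 with COQ8 had 42.0, 29.9, 3.53, 31.7 and 42.6 CPM in Reductive Charging and 65.2 CPM at time point 7. Its value at time point 3 rested on 15 counts, so a Reductive Charging library was also low. SIR2 had 7.8, 21.5, 20.5, 29.6 and 40.3 CPM in Reductive Charging and 28.8 CPM at time point 7. RAT1 and URH1 had 5 and 15 counts at time point 6, with log2 fold changes of -5.62 and -4.24 (edgeR adjusted p = 0.0446 and 0.0363).

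HSP78, a mitochondrial chaperone that frees aggregated proteins, had the smallest p of these. Its peak (chromosome IV, 974205 to 974652) had 213, 308, 185, 155 and 178 CPM, then 11.9 CPM at time point 6 and 222 CPM at time point 7. Only time point 6 lay outside the Reductive Charging range. The log2 fold change at time point 6 was -4.13 ± 0.57 (edgeR adjusted p = 0.000261) and the step from time point 6 to 7 was 4.22 ± 0.62 (edgeR adjusted p = 0.000679). Each of these time points is 1 library, and the spread in this fit comes from Reductive Charging alone. HSP78 was the 1 peak of 2042 (0.049%) to pass in that step, in which 6.61% were higher and 4.8% lower at an unadjusted p under 0.05 (11.4% in all). HSP78 passed again as lower at time points 8 to 10 (-2.26 ± 0.69, adjusted p = 0.0316). The other 8 were the peaks of ERG10, MDS3 with YIP4, PTM1 with NFU1, COX12, RPS13 with AIM7 and RPL7B, and 2 peaks with no coding gene within 500 bp. ERG10, the acetoacetyl-CoA thiolase gene of ergosterol synthesis, had 256 to 434 CPM, then 92.4 and 271 CPM. COX12, a cytochrome c oxidase subunit gene, had 75.3 to 186 CPM, then 10.4 and 119 CPM. The count of 19 was 3 without time point 5, 8 without time point 2, 29 without time point 4 and 30 without time point 3. Whether the low values at small peaks belong to this library or to its time point was not tested, since it has no second library.

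**Figure D3:**
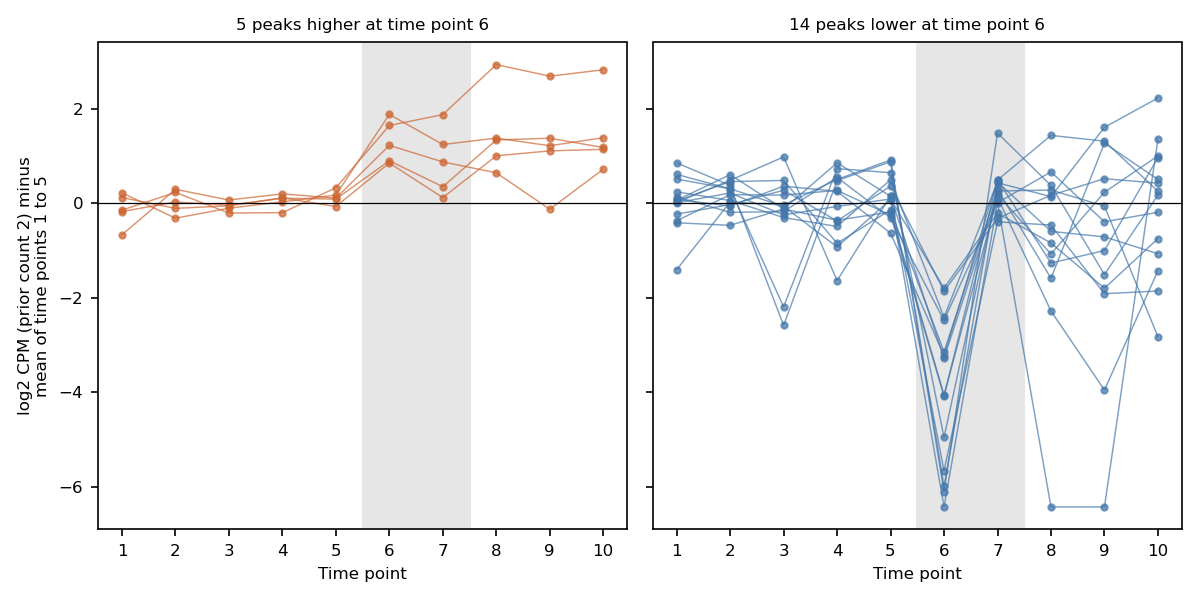
Log2 CPM (prior count 2) minus the mean of time points 1 to 5, at time points 1 to 10, for the peaks that passed at time point 6 (left, 5 higher; right, 14 lower), 1 line per peak; the grey band marks time points 6 and 7. At time point 7, 11 of the lower peaks lie within the Reductive Charging range and 3 above it, and 4 of the 5 higher peaks are still above the Reductive Charging range there.

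Time point 7 alone differed at 1 peak, SHM2 (0.049% of peaks). At an unadjusted p under 0.05 it had 29 higher peaks (1.42%) and 82 lower ones (4.02%), 5.44% in all. Its median deviation from Reductive Charging was 0.37 in the lowest quartile of peaks by mean level and -0.13 in the highest quartile. The same values were -0.10 and 0.09 at time point 6, and from -0.19 to 0.33 and from -0.07 to 0.14 across the Reductive Charging libraries. Their part in the results below was not tested.

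Time point 6 lay above all 5 Reductive Charging libraries at 489 peaks (23.9%) and below them at 464 (22.7%), and time point 7 at 331 (16.2%) and 329 (16.1%). Time point 6 did so without time point 7 at 354 peaks above (17.3%) and 361 below (17.7%), and time point 7 without time point 6 at 196 (9.6%) and 226 (11.1%). In all, 135 peaks (6.61%) had both Oxidative libraries above all 5 Reductive Charging libraries, and 103 (5.04%) had both below. Peaks of the set below were longer, with a median of 744 bp against 600 bp in the set above and 586 bp in the other 1804 peaks. Their median mean level per kilobase of peak was 573 CPM, against 268 and 287. Coding genes lay within 500 bp of 95.1% of the peaks below and 88.1% of those above. Transfer RNA genes overlapped 4.85% of peaks below, 12.6% of peaks above and 10.1% of the others. Genes on both strands were linked to 41.7%, 29.6% and 33.7% in the same order. Of the 204 peaks over transfer RNA genes 17 (8.33%) lay above and 5 (2.45%) below. Of the 276 peaks with no coding gene nearby 16 lay above and 5 below. Neither kind held a peak that passed at entry.

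Of 22 gene lists, 21 had at least 5 linked peaks, and 1 list held a peak that passed at entry. The lists were therefore described by how many members had both Oxidative libraries outside the Reductive Charging range, beside the 6.61% above and 5.04% below of all nuclear peaks, and by their median log2 fold change beside -0.003 for all nuclear peaks.

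Promoters of storage carbohydrate, stress and acetate genes had members below the range and none above it. Of 18 trehalose and glycogen peaks 6 lay below and 0 above, with a median log2 fold change of -0.44, and none passed. They were those of TPS2 and TSL1, of the trehalose synthase complex, UGP1 and PGM2, which make UDP-glucose and glucose-1-phosphate, and GPH1 and GDB1, which break glycogen down. TSL1 had 1420, 1230, 1580, 1560 and 1320 CPM and then 1060 and 787 CPM. The log2 fold change was -0.62 ± 0.17 (edgeR adjusted p = 0.197). UGP1 had 368 to 461 CPM and then 308 and 204 CPM, and GDB1 had 337 to 402 CPM and then 164 and 305 CPM. The peaks of the trehalases NTH1 and ATH1, of TPS1, and of the glycogen synthesis genes GSY1, GSY2, GLG1 and GLC3 were among the other 12. Those 12 did not have both Oxidative libraries below the range. Time point 6 lay below it at 7 of the 18 peaks and above it at 0, and time point 7 at 11 and 1, beside 22.7% and 16.1% of all peaks below. From entry to time points 8 to 10, TPS2 fell by 1.23 ± 0.28 in log2 units (edgeR adjusted p = 0.0251), and UGP1, GPH1 and PGM2 also fell (edgeR adjusted p = 0.0251, 0.0353 and 0.0416), beside 2.64% of all peaks. TSL1 and GDB1 did not pass in that step (-0.08 and -0.30, edgeR adjusted p = 0.915 and 0.762).

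Of 45 stress and chaperone peaks 9 lay below the range and 0 above, with a median of -0.18, and none passed. Time point 6 lay below at 15 and above at 4 of the 45, and time point 7 below at 19 and above at 4. Among all peaks, 22.7% were below and 23.9% above at time point 6, and 16.1% and 16.2% at time point 7. Beside PAI3 with SIP18 the 9 peaks included CTT1, cytosolic catalase, HSP26, a small heat-shock protein, and DDR2 and DDR48, stress-induced genes. The rest were GPX1, a glutathione peroxidase, SOD1, superoxide dismutase, SPI1, a cell wall protein, and MSN4 itself. HSP26 had 882, 1250, 1520, 1100 and 1130 CPM and then 859 and 663 CPM. Time point 6 lay just below time point 1, the lowest of Reductive Charging. Its log2 fold change at entry was -0.63 ± 0.19 (edgeR adjusted p = 0.279), and a larger change followed, a log2 difference of -3.60 (SE 0.77) from entry to time points 8 to 10 (edgeR adjusted p = 0.0353). The log2 deviations of HSP26 at time points 8, 9 and 10 were uneven, at -3.03, -7.33 and -4.71. CTT1 had 923 to 1200 CPM, then 789 and 610 CPM. DDR48 had 294 to 433 CPM, then 206 and 230 CPM.

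Of 22 peaks of glyoxylate, gluconeogenesis and acetyl-CoA supply genes 5 lay below and 0 above (median -0.20, none passed). They were at ADY2, an acetate transporter, ALD4, mitochondrial aldehyde dehydrogenase, JEN1, the lactate transporter, SIP4, a regulator of gluconeogenesis, and ATO3, whose peak is shared with the elongation factor gene EFT2. Time point 6 lay below the range at 7 of the 22 peaks and above it at 6, and time point 7 below at 15 and above at 0. The shares of all peaks were 22.7% below and 23.9% above at time point 6, and 16.1% and 16.2% at time point 7. ADY2 had 588, 547, 482, 509 and 503 CPM and then 405 and 308 CPM. ALD4 had 2050 to 2940 CPM in Reductive Charging, then 1890 and 1580 CPM, and fell further to time points 8 to 10 (-2.52 ± 0.19 against Reductive Charging, edgeR adjusted p = 7.81e-08). SIP4 with DPB11 had 145 to 201 CPM, then 42.8 and 123 CPM. Peak levels differed between the lists, and the median mean level was 957 CPM per peak for glyoxylate genes, 308 for storage carbohydrates and 215 for stress genes, against 169 for all peaks.

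Among biosynthetic lists, 3 of 13 serine, glycine and 1-carbon peaks lay above the range and 0 below (median 0.11, 1 passed, SHM2). The other 2 were GCV1, of the glycine cleavage system, and CYS4, cystathionine beta-synthase. GCV1 had 47.3 to 142 CPM and then 196 and 168 CPM, and CYS4 with GTO1 had 178 to 262 CPM and then 367 and 402 CPM. Of 27 sulfate assimilation, methionine and S-adenosylmethionine peaks 5 lay above and 0 below (median 0.15, none passed). They were CYS4 again, MUP1, the high-affinity methionine permease, MET6, methionine synthase, SUL1, a sulfate permease, and MET30, a ubiquitin ligase subunit that restrains the pathway. MUP1 had 1320, 1230, 1150, 1320 and 1270 CPM and then 1880 and 1580 CPM. The log2 fold change was 0.46 ± 0.15 (edgeR adjusted p = 0.351). MET6 had 547 to 604 CPM, then 646 and 973 CPM.

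Of 41 amino acid biosynthesis peaks 6 lay above and 0 below (median 0.03, none passed): LYS2, LYS12 and LYS20 of lysine synthesis, ILV5 of branched-chain synthesis, THR4, threonine synthase, and ASN2, asparagine synthetase. ILV2, acetolactate synthase, whose peak is shared with SPG4, had 332 to 545 CPM and then 345 and 289 CPM, so only time point 7 lay below. Of 15 purine and pyrimidine peaks 2 lay above, those of ADE16 and ADE17, isoenzymes that close the purine ring, and 0 below. ADE17 had 87.0 to 155 CPM and then 185 and 232 CPM.

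No promoter of the respiratory machinery passed at entry. Of 36 respiratory chain and ATP synthase peaks 1 lay above, that of COX13, and 2 below (median -0.12). At 24 of the 36 the log2 fold change was below 0, against 1030 of 2042 peaks in all. The 2 were CYB2 and CCP1, cytochrome c peroxidase, whose peak is shared with GPT2 and had 216 to 323 CPM and then 118 and 143 CPM. Of 21 citric acid cycle peaks 1 lay above and 2 below (median -0.12), and 17 had a log2 fold change below 0. MAE1, the malic enzyme, whose peak is shared with TFA1, had 338 to 565 CPM and then 639 and 682 CPM. The peak of MDH1, mitochondrial malate dehydrogenase, had 705 to 898 CPM and then 621 and 523 CPM. It also covers the 5' end of SRX1 and lies 16 bp from that of CYT2, and cannot say which of them it serves. Of 24 mitochondrial ribosome peaks 2 lay above and 2 below (median 0.18), and 17 had a log2 fold change above 0. One of those above is the LYS12 peak, which ends inside the body of RSM25, 390 bp from its 5' end. RSM7, whose peak is shared with YJR115W and TDA4, had 1400 to 2360 CPM, then 1330 and 1340 CPM.

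Cytosolic ribosomal protein promoters were near the background at entry: 10 of 120 lay above and 5 below, and the median was 0.02. None passed. RPS20, whose peak is shared with the urea transporter gene DUR3, had 303, 305, 335, 234 and 502 CPM and then 513 and 545 CPM, so that time point 5 was already close to the Oxidative level. RPL9A had 190 to 322 CPM and then 329 and 344 CPM. Of 19 ribosome biogenesis peaks 2 lay above, UTP20 and DRS1 (shared with COX17), and 0 below. Of 19 translation factor peaks 1 lay above, SBP1, and 1 below, EFT2. SBP1, an RNA-binding protein, had 38.0 to 101 CPM and then 139 and 137 CPM. Paralogous ribosomal protein and histone genes are uncertain where near-identical copies share reads.

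Of 6 histone peaks 2 lay above and 0 below (median 0.33, none passed), the divergent promoter of HTA2 and HTB2 and that of the linker histone HHO1. HTA2 with HTB2 had 745, 738, 671, 686 and 742 CPM and then 1000 and 813 CPM (log2 fold change 0.34 ± 0.16, edgeR adjusted p = 0.661). HTZ1, the H2A variant, had 744 to 1080 CPM, then 1330 and 1000 CPM, so that time point 7 lay inside the range. Of 16 peaks of G1 cyclins and start regulators 1 lay above and 0 below (median 0.11). It was CLN2, a G1 cyclin, whose peak is shared with BBP1. CLN2 had 137, 184, 252, 299 and 376 CPM at time points 1 to 5, 547 CPM at time point 6 and 385 CPM at time point 7. It was higher at each time point than at the one before until time point 6, as were 4 of the 2042 peaks (0.196%; 5 were lower at each step, 0.245%), and its entry difference of 0.90 ± 0.30 did not pass (edgeR adjusted p = 0.362). NRM1, a co-repressor of G1 genes, had 71.7 to 144 CPM and then 226 and 124 CPM.

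Of 12 daughter cell separation peaks 0 lay above and 1 below, that of ASH1 (shared with MTR2), with 441 to 656 CPM and then 300 and 428 CPM. BUD9 had 215 to 471 CPM and then 484 and 439 CPM. Of 12 mating pheromone peaks 1 lay above, STE2 with GYP8. STE2, the alpha-factor receptor, had 119 to 270 CPM, then 339 and 312 CPM. The peak linked to the kinase gene FUS3 overlaps the 3' part of that gene, runs past its end and covers the 5' end of ACH1, an acetyl-CoA hydrolase gene. It had 2600 to 3400 CPM and then 2780 and 1630 CPM. Of 20 cell wall peaks 4 lay above, FKS1, SCW4, SCW10 and TOS6, and 2 below, CWP1 and PIR1. FKS1, the glucan synthase, had 900 to 1230 CPM, then 1420 and 1450 CPM. Of 24 glycolysis peaks 2 lay above, HXK2 and PDC1, and 2 below, HXK1 and PFK2. Time point 7 lay below the range at 13 of the 24 and above it at 3, and time point 6 at 4 and 8. Of all peaks 16.1% lay below and 16.2% above at time point 7, and 22.7% and 23.9% at time point 6. The list's median mean level was 921 CPM per peak, against 169 for all peaks. At time point 7 the highest quartile of peaks by mean level had a median deviation of -0.13, and its part here was not tested. TDH3 had 885 to 1370 CPM and then 910 and 826 CPM. Of 16 hexose transporter peaks 2 lay above, HXT3 and HXT4, and 1 below, HXT16. HXT4 had 160 to 384 CPM, then 429 and 414 CPM. Of 11 fatty acid oxidation peaks 0 had both Oxidative libraries above the range and 0 had both below it. No peak of these lists passed at entry.

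**Figure D4:**
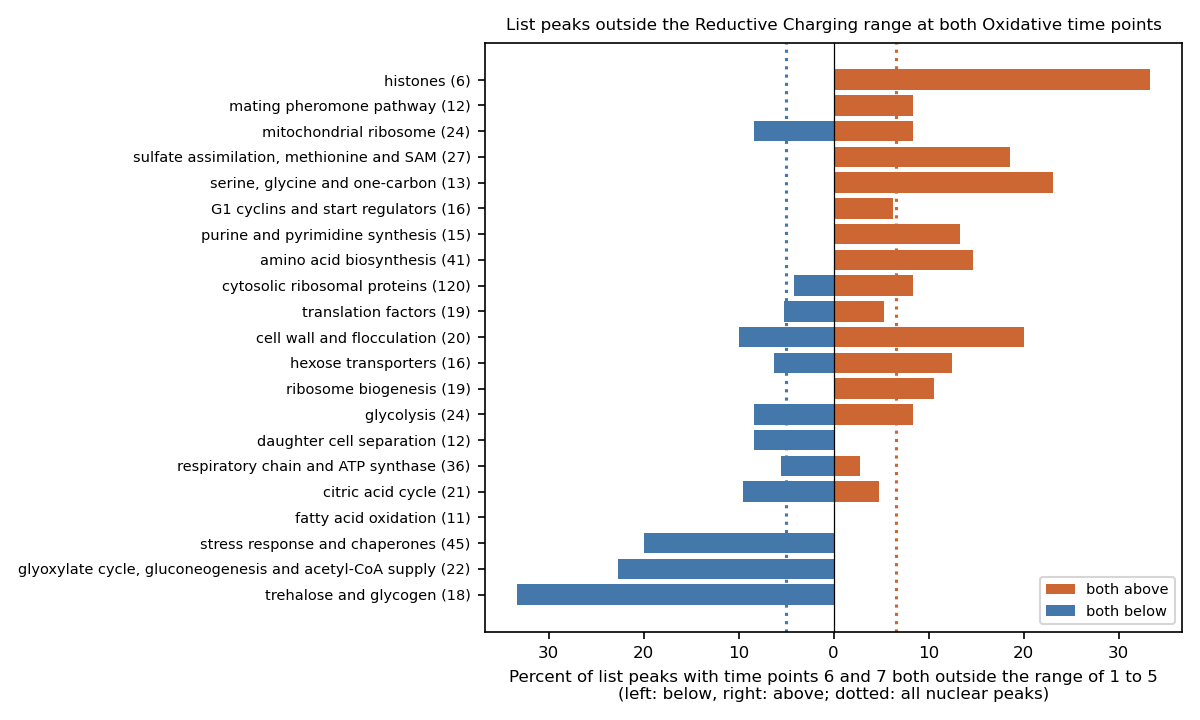
Percent of each list's peaks (number in brackets) whose values at time points 6 and 7 both lay below (left) or above (right) all 5 Reductive Charging libraries; dotted lines show all nuclear peaks (5.04% and 6.61%). Trehalose and glycogen, glyoxylate, stress and daughter cell separation lists have members below and none above. Serine, sulfur, amino acid, purine and pyrimidine, ribosome biogenesis, histone, G1 cyclin and mating pheromone lists have members above and none below.

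Among genes that mark the phases, RPL17B (with ATG27) had 700 to 952 CPM in Reductive Charging and 1030 and 952 CPM at entry, and the acyl-CoA oxidase gene POX1 (with CHC1) had 246 to 439 CPM and then 143 and 265 CPM. Neither passed at entry (log2 fold changes 0.21 ± 0.17 and -0.64 ± 0.30, edgeR adjusted p = 0.915 and 0.636). POX1 fell by 1.47 (SE 0.35) from entry to time points 8 to 10 (edgeR adjusted p = 0.0302). TES1, a peroxisomal thioesterase gene, had 173 to 315 CPM in Reductive Charging, 502 CPM at time point 6 and 277 CPM at time point 7, and fell by 1.79 from entry to time points 8 to 10 (edgeR adjusted p = 0.0270). Between these sets of libraries 18 of 2042 peaks rose (0.881%) and 54 fell (2.64%).

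**Figure D5:**
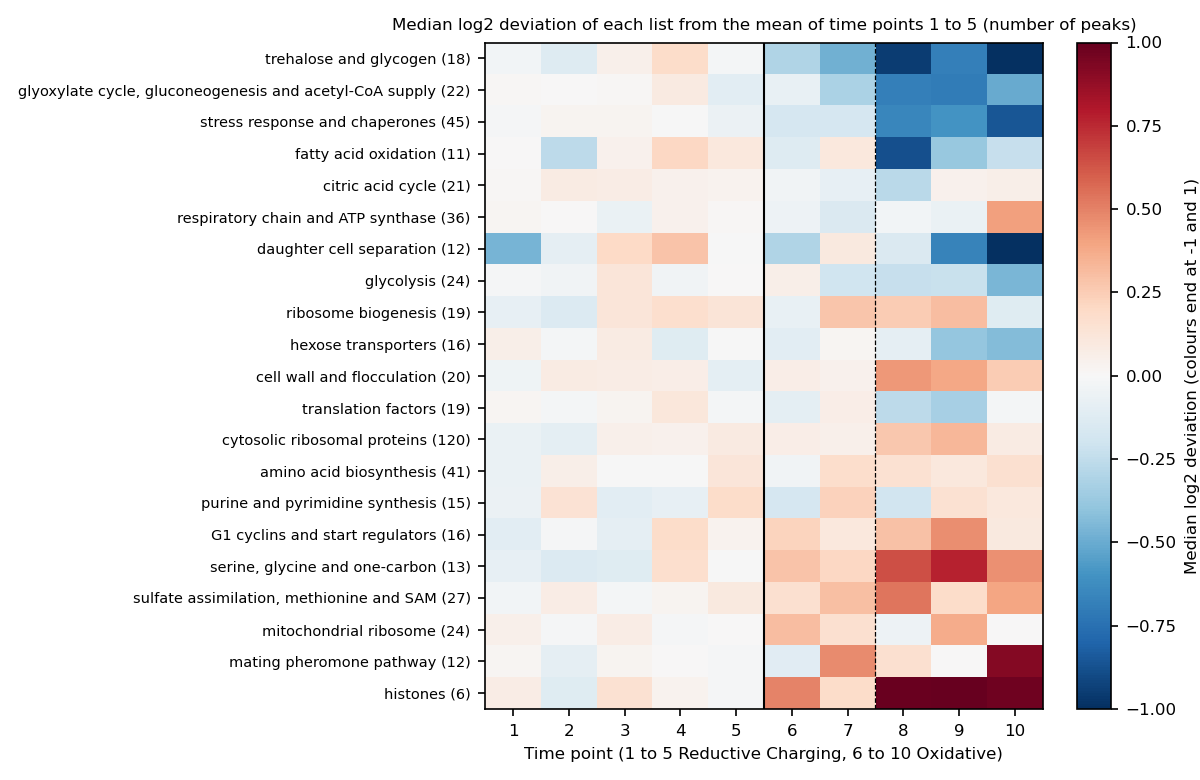
Median log2 deviation of each list's peaks from the mean of time points 1 to 5 (rows, with the number of peaks) at time points 1 to 10 (columns); the solid line separates Reductive Charging from Oxidative and the dashed line marks the end of time point 7. The trehalose and glycogen row is -0.30 and -0.48 at time points 6 and 7 and between -0.69 and -1.02 at 8 to 10, and the histone row is 0.49 and 0.19 and then between 0.97 and 1.05.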

How the data were processed

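In the table the authors deposited, each row is a peak of a shared list and each of 18 columns holds the raw counts of a library. The submitters' processing notes, which the authors deposited with the table, name build R64 and the tools Trimmomatic, MACS2 and Bowtie2. The sources used here do not give versions, how reads were counted or shifted, how duplicates and reads mapping to several places were handled, or whether libraries were pooled for peak calling. If duplicates were kept, the counts are not independent molecules. Peak coordinates, whose start and end are other values in the deposited table, were written 1-based, and 0 columns were left unmatched.

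Mitochondrial peaks and peaks within the ribosomal RNA genes of chromosome XII (451786 to 489469) were left out, and library sizes were nuclear counts. Counts were tested with edgeR 4.0.16 in R 4.3.3 (filterByExpr, which removed no peak, TMM, robust quasi-likelihood F test, Benjamini-Hochberg, threshold 0.05) on the 7 libraries. Time points 6 and 7 were also fitted as single levels, and time points 8 to 10 in a fit of 10 libraries. The coverage of time points 8 to 10 is not given here, and low values there may rest on few counts. The RAD53 peak, with 0 counts at time point 6, had the same log2 deviation of -6.43 at time points 6, 8 and 9. CPM values are scaled by TMM. Peaks were linked to coding genes whose 5' end (RefSeq, build R64, with the strand read off the systematic name) was at most 500 bp away, and a gene with several linked peaks was represented by its highest on average. Of 800 list entries 6 had no match in the annotation. A peak named for a single gene may link to others too, as the TSL1 peak does to CUE4 and the HTZ1 peak to PLB3.

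The rule for named promoters took up to 12 peaks a direction past the threshold and up to 6 more by smallest p, outside repeated families, up to 5 a direction at time point 6, and the members of each list past the threshold or its 2 smallest p. Other list members are named because they lay outside the range, a choice made with their values known. The mitochondrial ribosomal protein gene MRPL10, a mark of the rule, has no linked peak. The members and lists were chosen with earlier results of these data known. On 3 simulated tables of 2042 peaks, the entry test recovered 53.2% of 2-fold changes, 86.6% of 4-fold changes and 96.5% of 8-fold changes, and 3.87% of its calls were false. The simulated libraries were independent, with spreads fitted to these data and no library-wide deviation such as that of time point 6. These shares therefore need not hold for the real libraries. Alternatives were DESeq2 1.42.0, limma-voom (limma 3.58.1), other scalings, filters, references, libraries and distances. Plots used matplotlib 3.10.9.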

Additional observations from a re-analysis of the deposited data

Results flagged for a closer look

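The ribosomal DNA share of counts at time point 4, 25.1%, was the highest of the 5 Reductive Charging libraries and far from the others, which ran from 12.5% to 15.0%. The RAT1 peak had 8.70 CPM at time point 3, the lowest of Reductive Charging, against 51.0 to 67.7 CPM in the other 4 libraries; RAT1 is one of the peaks that fell at time point 6. These were 2 of 26 groups examined for a single distant library, and chance marks about 1 in 20 groups that are independent, normal and unselected. Most of the 26 were peaks already picked for a small p, so that rate need not hold for them. The HSP78 peak had 11.9 CPM at time point 6 and 222 CPM at time point 7, a log2 difference of 4.22 (edgeR adjusted p = 0.000679). This sets 1 library against 1, with the spread taken from the Reductive Charging libraries alone, and time point 6 had the highest SD over peaks (0.827).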

How the results depend on the processing

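The 3 calls at entry became 18 with DESeq2 (7 higher, 11 lower, including the 3), 1 with time points 3 to 5 as the reference, 0 with all 18 libraries (0 at an unadjusted p under 0.05) and 0 with a linear time term (62 at an unadjusted p under 0.05), and leaving out each library gave 1 to 21. The cause was not tested. The setting with no filter repeated the main fit, since the filter removed no peak, and it is counted among the settings that follow. Over 21 settings SHM2 passed in 19, CAF120 in 17 and MEP2 in 7, with log2 fold changes of 1.54 to 2.18, 1.24 to 1.87 and 0.69 to 1.39; the SHM2 adjusted p ran from 6.24e-08 to 1.00. The calls at time point 6 ran from 3 to 30, those at time point 7 from 1 to 2 and those of the step from 6 to 7 from 1 to 14 when each library was left out, and the step had 8 with nuclear totals. Nuclear totals moved the median of all peaks at time points 6 and 7 to -0.11 and 0.13, and total counts moved it to 0.39 at entry. Under nuclear totals the medians of the cell wall, hexose transporter and translation factor lists turned above 0, to 0.023, 0.013 and 0.009. The median of all peaks at entry was 0.026 in that setting, so each of these list medians lay below it. The mitochondrial difference ran from -20.4 to -8.55 points and the ribosomal DNA difference from 4.17 to 10.3 when each library was left out, designs that cannot reach an exact p of 0.05. No paired analysis was possible because the labels give the groups no shared replicate numbers. Depth limits the small peaks: a change at a peak near 20 CPM rests on few counts at time point 2, the shallowest library.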
